A study of Phaseolus vulgaris with 12 samples.

Results

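Of 22542 loci listed for true leaves of common bean (Phaseolus vulgaris), 162 had a description that matched calmodulin, calcineurin, CBL-interacting, calcium-dependent protein kinase or calcium-binding EF hand. The 107 of them that reached 1 FPKM in 3 or more of the 12 libraries are described here, out of 14716 loci of every kind that passed the same filter. FPKM are fragments per transcript length and per mapped fragments, so levels of different loci can be set side by side. The libraries formed 4 groups of 3, named 120 cold, 120 control, 093 cold and 093 control. The submitters call variety 120 cold-tolerant and variety 093 cold-sensitive. Cold plants spent 3 days at 4 °C in an incubator and control plants stayed on a culture rack, both with 12 h of light per day, so that cold and growing place cannot be told apart. There were 3 pots with 4 seeds each per variety and treatment. No label ties a library to a pot or plant, and the p-values below therefore measure only the spread among libraries, which may be technical.

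Chilling lets calcium into the cytosol of plant cells, and proteins with EF hands, a fold that holds a calcium ion, read this signal. Calmodulins and calmodulin-like proteins change shape with calcium and attach to other proteins. Calcium-dependent protein kinases carry EF hands and a kinase domain in a single chain, whereas calcineurin B-like (CBL) sensors have no enzyme activity and recruit CBL-interacting kinases.

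By their descriptions the 107 loci comprised 9 calmodulins and calmodulin-like proteins, 6 CBL sensors, 13 CBL-interacting kinases, 16 calcium-dependent kinases, 19 other EF-hand proteins, 31 calmodulin-binding proteins and 13 calcineurin-like phosphoesterases. The phosphoesterases matched through the word calcineurin only, and their description names a metallo-phosphoesterase superfamily rather than a calcium sensor. Of the 107, 77 had at least 1 FPKM in every library, 9 reached 1 FPKM in cold libraries only and 1 in control libraries only. The 55 matching loci that did not pass included 22 of 41 EF-hand proteins, 10 of 26 calcium-dependent kinases and 6 of 15 calmodulins. Of these 55, 46 stayed under 1 FPKM in every library, and the highest value of any was 3.04 FPKM, for an EF-hand protein (Phvul.008G167700). In their third-highest library the members nearest the limit were Phvul.011G041700 at 1.03 FPKM and Phvul.003G148600 at 1.21 FPKM, and the nearest loci left out were Phvul.011G055400 at 0.934 FPKM and Phvul.002G179600 at 0.806 FPKM.

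The FPKM of a library added up to 313320 to 350100, and the number of reads behind them is unknown. Library 3 of 093 control stood apart for these loci. It was the highest of its 3 libraries for 76 of the 107 (71.0%, against 57.7% of all tested loci), and for 15 of them (14.0%, against 2.72%) it exceeded both others by at least 1 on the log2(FPKM + 1) scale. Library 3 of 120 cold was the lowest of its group for 70 of the 107 (65.4%, against 39.4% of all tested loci). Values without these libraries are given beside many of the results they change. As a check of the labelled tissue, 34 of 35 listed leaf genes (light-harvesting proteins, photosystem II subunits and Rubisco) passed the filter. Together they summed to 8900 to 13365 FPKM in 120 cold, against 34272 to 38166 FPKM in 120 control, and to 11265 to 12177 FPKM in 093 cold, against 29340 to 43423 FPKM in 093 control. Seed words matched 40 loci, nearly all described as lipid-transfer or seed storage 2S albumin superfamily proteins, and no description named vicilin, legumin or cruciferin. The 10 that passed summed to 143 to 236 FPKM in 120 cold, against 12.8 to 18.8 FPKM in 120 control, and to 96.2 to 137 FPKM in 093 cold, against 20.1 to 257 FPKM in 093 control. Root words matched 10 loci, and the 6 that passed summed to 80.1 to 101 FPKM in 120 cold, against 88.8 to 111 FPKM in 120 control, and to 127 to 139 FPKM in 093 cold, against 42.1 to 65.4 FPKM in 093 control. The part of these shifts in the results below was not tested, and in whole leaves more RNA per cell cannot be told apart from more cells of a type.

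More of the 107 loci rose than fell under cold in both varieties. A locus was called where limma gave an adjusted p under 0.05 over all 14716 tested loci and the change on log2(FPKM + 1) was 1 or more in size, and only called loci are said to have risen or fallen. In 120, 41 members rose (38.3%, against 27.8% of all tested loci) and 7 fell (6.54%, against 18.6%). In 093, 46 rose (43.0%, against 33% of all tested loci) and 5 fell (4.67%, against 15.2%). Calls in either direction were about as frequent among members as among all loci, at 44.9% against 46.4% in 120 and 47.7% against 48.2% in 093. Cold and control libraries did not overlap for 71 members in 120 (66.4%, against 72.8% of all tested loci) and for 82 in 093 (76.6%, against 78.3%). The median log2 change of the members was 0.40 in 120, against 0.18 over all tested loci, and 0.74 in 093, against 0.43. The 10 members that reached 1 FPKM in cold libraries only or in control libraries only passed the filter through the group where they were high, so their direction was fixed by it. In a count chosen after seeing the data, leaving such loci out gave 33 rises (34%) and 6 falls (6.19%) among 97 members in 120, against 25.8% and 18.3% of the 12874 loci that remained of all tested, and 38 rises (39.2%) and 5 falls (5.15%) in 093, against 31% and 14.8%. The shares of summed FPKM that follow include all 107 members, those 10 among them. Together the members took 0.949% ± 0.167 of the summed FPKM in 120 cold, against 0.428% ± 0.00178 in 120 control, and 0.778% ± 0.0152 in 093 cold, against 0.456% ± 0.0801 in 093 control (SD, n = 3 libraries each).

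The counts in 093 moved with the scaling between libraries, for the members and for all tested loci. Median-ratio scaling shifted the median change of all tested loci by -0.17 in 120 and -0.41 in 093, and quantile normalization by -0.22 in 120 and -0.43 in 093. In 120, 39 members were called higher and 7 lower with median-ratio scaling, and 38 and 7 with quantile normalization, while in 093 the counts were 33 and 11, and 31 and 10. Over all tested loci, 24% were called higher and 22.1% lower in 120 with median-ratio scaling, and 22.4% and 23% with quantile normalization. In 093 these shares were 23% higher and 22.9% lower with median-ratio scaling, against 30.8% and 10.3% of the members, and 22.7% and 23.6% with quantile normalization, against 29% and 9.35% of the members. Leaving out library 3 of 120 cold gave 42 rises and 4 falls in 120, and leaving out library 3 of 093 control gave 47 rises and 5 falls in 093.

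**Figure D1:**
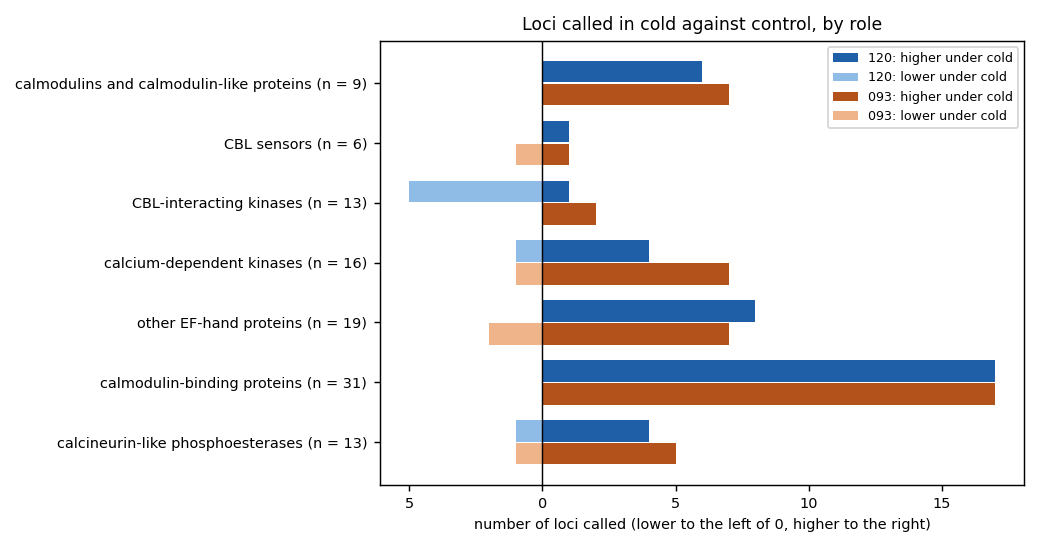
Number of loci called in cold against control, by role and variety. Bars to the right of 0 count loci higher under cold and bars to the left count loci lower under cold. Calmodulin-binding proteins have the longest bars, with 17 of 31 higher in each variety, and CBL-interacting kinases in 120 have more lower (5) than higher (1) calls.

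Calmodulins and calmodulin-like proteins, the sensors themselves, rose in 6 of 9 cases in 120 and 7 of 9 in 093, and 0 of 9 were called lower in either. Of the 3 and 2 others, Phvul.008G206000 (calmodulin 5) and Phvul.010G072500 (calmodulin-related) were called in neither variety. Rises made up 66.7% of the 9 in 120, against 27.8% of all tested loci, and 77.8% in 093, against 33%. The median log2 change was 2.34 in 120 and 1.23 in 093, against 0.18 and 0.43 over all tested loci. Of the 9, Phvul.001G155400, Phvul.007G278900 and Phvul.007G187200 reached 1 FPKM in cold libraries only, so that their direction followed from the filter. Among the other 6, 3 rose in 120 and 4 in 093 (50% and 66.7%, against 25.8% and 31% of all tested loci counted in that way). Their median changes were 0.87 and 1.05, against 0.13 and 0.37 over those loci. The sums that follow again include the 3 loci that reached 1 FPKM in cold libraries only, and sums without them were not computed. Summed over the 9 loci, the level was 399.6 ± 108 FPKM in 120 cold, against 28.9 ± 4.87 FPKM in 120 control. In 093 it was 197 ± 16.1 FPKM in cold, against 44.9 ± 57.5 FPKM in control, where libraries 1 and 2 stood at 12.9 and 10.5 FPKM and library 3 at 111 FPKM (SD, n = 3 each). With median-ratio scaling 5 and with quantile normalization 4 of the 9 were called higher in 093.

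Phvul.007G111200, described as calmodulin-like 11, had 55.0, 66.1 and 49.4 FPKM in 120 cold, against 0.141, 0.306 and 0.310 FPKM in 120 control. In 093 cold the same locus had 45.1, 52.8 and 52.9 FPKM, against 0.169, 0.619 and 2.51 FPKM in 093 control. All cold libraries lay far above all control libraries, and the log2 change was 5.52 (SE 0.31, adjusted p = 3e-08) in 120 and 4.77 (SE 0.31, adjusted p = 8.7e-08) in 093. A second locus with that description, Phvul.007G278900, had 95.7, 109 and 46.0 FPKM in 120 cold, against 0.214, 0.936 and 0.460 FPKM in 120 control, and 21.8, 20.1 and 19.3 FPKM in 093 cold, against 0.0992, 0 and 0.577 FPKM in 093 control. It was nearly absent without cold in both varieties, and every 120 cold library exceeded every 093 cold library. Phvul.001G155400, also described as calmodulin-like 11, had 31.8, 23.4 and 8.04 FPKM in 120 cold, against 0, 0.344 and 0 FPKM in 120 control. In 093 it had 1.92, 1.18 and 1.03 FPKM in cold and stood at 0 in each control library. It was the calmodulin-like locus with the widest gap between varieties under cold, and it was the sole one of the 3 not to stay called in 093 with quantile normalization (log2 change 0.95). The sources used here do not say how reads shared by near-identical copies were assigned, so values of loci with the same description may not be independent.

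Phvul.004G076400, described as calmodulin 5, had the highest level of the 9, with 205, 268 and 164 FPKM in 120 cold, against 14.5, 8.66 and 12.7 FPKM in 120 control. In 093 cold it had 87.5, 114 and 103 FPKM, against 4.10, 1.36 and 95.7 FPKM in 093 control. Libraries 1 and 2 of 093 control lay far below cold, and library 3 lay within the range of the cold libraries. The log2 change was 4.04 (SE 0.99, adjusted p = 0.0031) in 120 and 3.28 (SE 0.99, adjusted p = 0.011) in 093, where it was 4.88 without that library. Without it the difference of the responses, 120 minus 093, was -0.84 against 0.76 with all libraries, called in neither case. A fit on the 093 libraries alone gave an adjusted p of 0.06 with limma. MSTRG.6293, another locus described as calmodulin 5, which shares its gene name with a further locus, rose in both varieties, at 9.35 ± 2.66 FPKM in 120 cold, against 2.55 ± 0.907 FPKM in 120 control, and 4.85 ± 0.761 FPKM in 093 cold, against 1.84 ± 0.570 FPKM in 093 control (SD, n = 3 each). Calmodulin 8 was described at 2 loci with different patterns. Phvul.007G187200 rose in both varieties, with mean levels of 4.70 ± 1.86 FPKM in 120 cold, against 0.0892 ± 0.0904 FPKM in 120 control, and 7.01 ± 0.685 FPKM in 093 cold, against 0.217 ± 0.298 FPKM in 093 control (SD, n = 3 each). Phvul.006G101200 had 2.04, 3.13 and 2.00 FPKM in 120 cold, against 5.54, 3.45 and 3.60 FPKM in 120 control, and 1.96, 1.45 and 2.17 FPKM in 093 cold, against 0.561, 0.289 and 0.277 FPKM in 093 control. Its log2 change was -0.61 in 120, where it was not called, and 1.05 in 093, where it rose. The rise in 093 was under 1 with median-ratio scaling (0.80), with quantile normalization (0.61) and without library 3 of 093 cold (0.97).

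**Figure D2:**
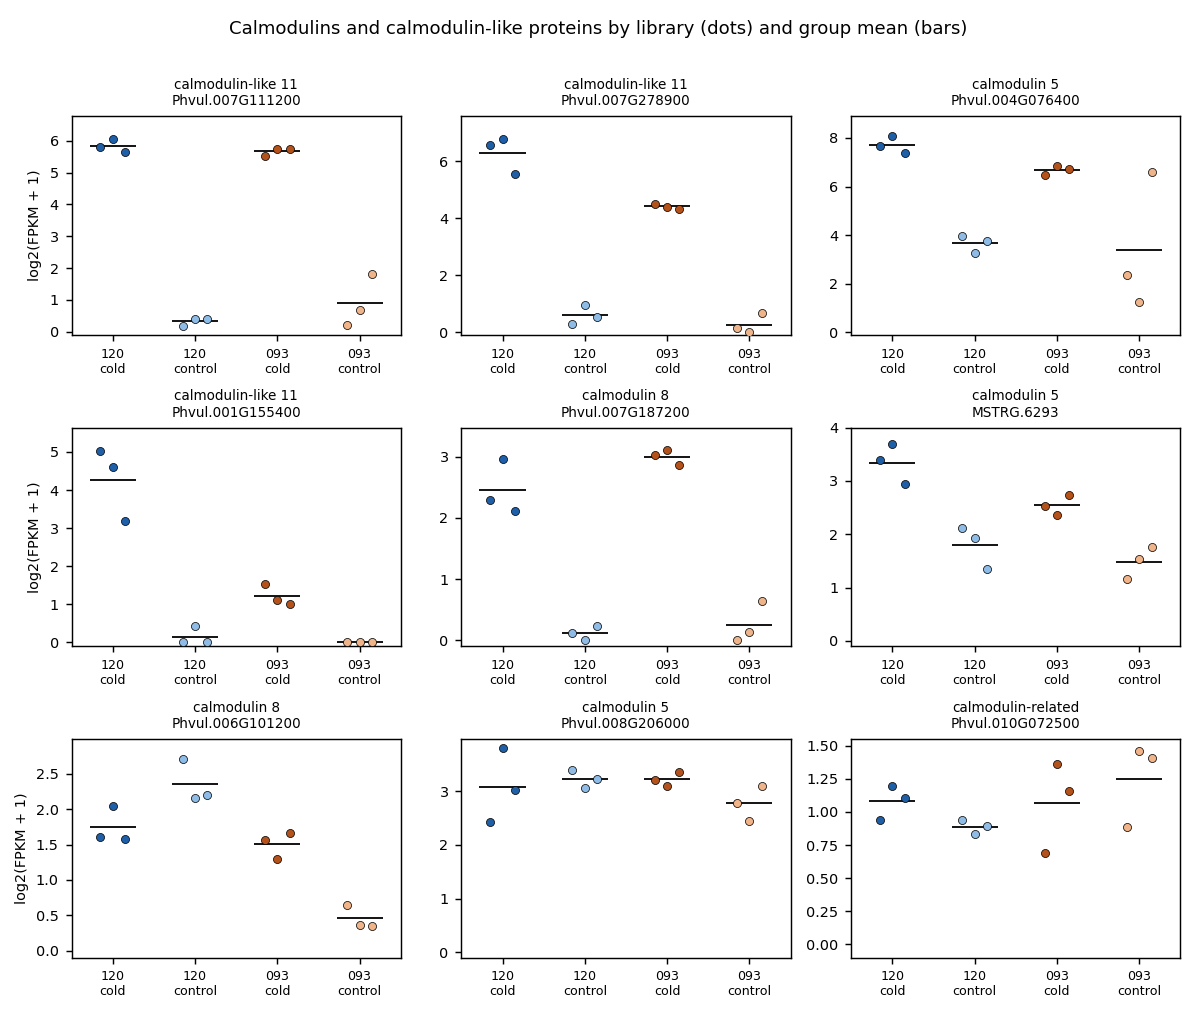
Levels of the 9 calmodulins and calmodulin-like proteins, as log2(FPKM + 1) on a scale set for each panel. Dots are libraries and bars are group means. The calmodulin-like 11 loci lie near 0 in most control libraries and above it under cold, and for calmodulin 5 (Phvul.004G076400) the third 093 control library, at 95.7 FPKM, sits with the 093 cold libraries.

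CBL sensors pass the calcium signal to partner kinases. Of the 6 sensors, 1 was called in 120 (16.7%, against 46.4% of all tested loci), a rise, and 2 were called in 093 (33.3%, against 48.2%), a rise and a fall, and with 6 loci nothing is read from these shares. Phvul.003G225900, described as CBL9, whose Arabidopsis namesake activates the kinase CIPK23, had 52.0, 61.0 and 34.4 FPKM in 120 cold, against 19.7, 11.9 and 16.2 FPKM in 120 control, and 37.8, 42.0 and 36.2 FPKM in 093 cold, against 13.0, 12.7 and 28.3 FPKM in 093 control. It rose in both, by 1.55 (SE 0.30, adjusted p = 0.00057) in 120 and by 1.15 (SE 0.30, adjusted p = 0.0041) in 093. The change in 093 was no longer called with median-ratio scaling (0.65), quantile normalization (0.67), without library 1 of 093 control (0.98) or without library 2 (0.97). Phvul.006G059266, described as CBL3, a sensor of the vacuolar membrane in Arabidopsis, was the sensor with the highest level, at 78.3, 72.0 and 69.5 FPKM in 120 cold, against 40.2, 36.1 and 36.6 FPKM in 120 control, and 52.9, 53.1 and 50.2 FPKM in 093 cold, against 27.7, 25.8 and 35.5 FPKM in 093 control. Its groups did not overlap in either variety, but its log2 changes of 0.94 in 120 and 0.80 in 093 stayed under 1. Phvul.010G139700, described as CBL10, which acts in salt tolerance of Arabidopsis shoots, had 5.02, 5.06 and 3.21 FPKM in 120 cold, against 4.16, 4.12 and 3.90 FPKM in 120 control, and 3.20, 2.91 and 3.61 FPKM in 093 cold, against 12.1, 11.3 and 9.81 FPKM in 093 control. The 093 control libraries stood above all other libraries, and the locus fell in 093 with a log2 change of -1.51 (SE 0.16, adjusted p = 4.6e-06).

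In 120, 5 of the 13 CBL-interacting kinases fell and 1 rose, whereas 2 rose and 0 fell in 093. Falls made up 38.5% of the group in 120, against 18.6% of all tested loci, and 0% in 093, against 15.2%. Without Phvul.010G160900, whose direction followed from the filter, 4 of 12 fell in 120 (33.3%, against 18.3% of all tested loci counted in that way). The fifth fall in 120, of Phvul.010G160900, was as large in 093, at -3.72 against -3.80 in 120, and was not called there (limma, adjusted p = 0.053). Their median log2 change was -0.43 in 120 and 0.00 in 093, against 0.18 and 0.43 over all tested loci. The count of falls depended on 1 library and on scaling. Without library 3 of 120 cold 2 of the 13 fell in 120, without library 3 of 093 control 3 were called higher and 2 lower in 093, and with median-ratio scaling or quantile normalization 2 were higher and 3 lower there. Phvul.008G184400, described as CIPK8, a regulator of nitrate responses in Arabidopsis, was the member of this group that rose in both varieties. It had 37.4, 37.7 and 28.3 FPKM in 120 cold, against 8.67, 8.74 and 9.0 FPKM in 120 control, and 41.2, 43.8 and 42.1 FPKM in 093 cold, against 11.5, 10.4 and 10.2 FPKM in 093 control. The log2 changes were nearly equal, at 1.84 (SE 0.12, adjusted p = 9.6e-08) in 120 and 1.89 (SE 0.12, adjusted p = 7.5e-08) in 093. Phvul.003G121600, described as CIPK1, which acts with CBL sensors in osmotic stress in Arabidopsis, had 1.3, 1.94 and 1.21 FPKM in 120 cold, against 1.64, 1.25 and 0.748 FPKM in 120 control. In 093 it had 11.4, 11.6 and 11.4 FPKM in cold, against 0.494, 0.225 and 0.351 FPKM in control. Cold and control libraries overlapped in 120, while in 093 every cold library stood far above every control library and the locus rose by 3.20 (SE 0.18, adjusted p = 2.4e-08). A second locus described as CIPK1, Phvul.009G220200, fell in 120 with a log2 change of -1.24 (SE 0.19, adjusted p = 0.00012), with 12.9, 10.1 and 9.61 FPKM in 120 cold, against 36.3, 19.4 and 27.3 FPKM in 120 control. In 093 its log2 change was -0.91 and not called, but it was -1.40 with median-ratio scaling and -1.39 with quantile normalization, both called.

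Phvul.009G257000, described as CIPK9, which acts in potassium nutrition in Arabidopsis, had 5.46, 2.29 and 6.19 FPKM in 120 cold, against 22.3, 17.4 and 18.2 FPKM in 120 control, and 2.82, 3.35 and 4.40 FPKM in 093 cold, against 14.8, 4.76 and 6.81 FPKM in 093 control. It fell in 120 with a log2 change of -1.92 (SE 0.36, adjusted p = 0.00051). In 093 the change was -0.99 and not called, and it was called at -1.31 without library 2 of 093 control, -1.09 without library 3 and -1.13 without library 3 of 093 cold. It was also called at -1.15 with a pseudocount of 0.1 and at -1.43 with either other scaling, and it was -0.58 without library 1 of 093 control. Phvul.009G213000, described as CIPK23, which in Arabidopsis phosphorylates a potassium channel and a nitrate transporter, had 9.82, 8.04 and 2.80 FPKM in 120 cold, against 15.4, 12.1 and 15.3 FPKM in 120 control, and 4.36, 4.46 and 4.11 FPKM in 093 cold, against 2.3, 2.21 and 3.33 FPKM in 093 control. It fell in 120 with a log2 change of -1.08 (SE 0.31, adjusted p = 0.0086), which was -0.62 and no longer called without library 3 of 120 cold, and a fit on the 120 libraries alone gave an adjusted p of 0.051 with limma. Every 120 control library exceeded every library of the other groups. The other falls in 120 were both described as CIPK5. Phvul.010G160900 was listed at 0 in all 6 cold libraries, in library 1 of 120 control and in library 3 of 093 control, and had 56.9 and 46.1 FPKM in the other 120 control libraries and 34.7 and 63.3 FPKM in the other 093 control libraries. It reached 1 FPKM in control libraries only, so that its direction followed from the filter. With an adjusted p that limma put just under the threshold (0.05 as rounded), its call in 120 was lost in most alternatives, while in 093 it was called at -5.58 without library 3 of 093 control, and an exact 0 beside such levels may be a failed estimate. Phvul.005G181900, named because it completes the 5, had 17.9, 22.0 and 11.9 FPKM in 120 cold, against 28.7, 28.8 and 50.0 FPKM in 120 control, with a log2 change of -1.0 (SE 0.40, adjusted p = 0.039) that was -0.77 and not called without library 3 of 120 cold. The 2 kinases with the highest mean levels were called in neither variety. The first, Phvul.010G118300, also described as CIPK9, had 92.7, 84.9 and 85.1 FPKM in 120 cold, against 79.9, 95.5 and 78.8 FPKM in 120 control, and 147, 141 and 153 FPKM in 093 cold, against 56.8, 63.8 and 145 FPKM in 093 control. Its change in 093 of 0.86 was not called, and without library 3 of 093 control it was called at 1.27. The second, Phvul.008G205700, described as CIPK3, a kinase of abscisic acid and cold signalling in Arabidopsis, had mean levels of 60.6 ± 7.98 FPKM in 120 cold, against 78.9 ± 19.3 FPKM in 120 control, and 114 ± 7.28 FPKM in 093 cold, against 114 ± 9.26 FPKM in 093 control (SD, n = 3 each).

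Calcium-dependent kinases rose in 4 of 16 cases and fell in 1 in 120, and rose in 7 and fell in 1 in 093. The rises made up 25% in 120, against 27.8% of all tested loci, and 43.8% in 093, against 33%, which for 16 loci is near the background. The 4 that rose in 120 also rose in 093. Their summed level was 607 ± 124 FPKM in 120 cold, against 175 ± 9.93 FPKM in 120 control, and 554 ± 10.8 FPKM in 093 cold, against 180.2 ± 46.9 FPKM in 093 control (SD, n = 3 each). Much of that sum came from Phvul.006G043700, described as calmodulin-domain protein kinase 9. It had 302, 294 and 190.0 FPKM in 120 cold, against 14.0, 17.3 and 15.5 FPKM in 120 control, and 247, 261 and 249 FPKM in 093 cold, against 10.2, 10.3 and 40.9 FPKM in 093 control. By mean level it ranked 1 of the 107 in both cold groups, and 26 in 120 control and 19 in 093 control. Its log2 change was 3.96 (SE 0.41, adjusted p = 3.9e-06) in 120 and 3.86 (SE 0.41, adjusted p = 4.6e-06) in 093, where it was 4.49 without library 3 of 093 control.

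Phvul.001G135300, described as calcium-dependent protein kinase 32, which phosphorylates an abscisic acid-responsive transcription factor in Arabidopsis, had 125, 116 and 77.8 FPKM in 120 cold, against 6.72, 7.28 and 6.00 FPKM in 120 control, and 53.9, 54.8 and 53.3 FPKM in 093 cold, against 4.48, 3.80 and 17.5 FPKM in 093 control. It rose by 3.78 (SE 0.40, adjusted p = 4.8e-06) in 120 and by 2.81 (SE 0.40, adjusted p = 5.5e-05) in 093. Phvul.002G108700, described as calcium-dependent protein kinase 16, had 58.4, 52.2 and 33.7 FPKM in 120 cold, against 5.80, 5.36 and 6.32 FPKM in 120 control, and 28.1, 25.3 and 26.0 FPKM in 093 cold, against 6.39, 5.63 and 13.8 FPKM in 093 control. All cold libraries exceeded all control libraries of their variety at both loci. The fourth kinase that rose in both was Phvul.009G190566, described as kinase 30, at 51.5 ± 13.2 FPKM in 120 cold, against 12.4 ± 0.594 FPKM in 120 control, and 58.9 ± 1.92 FPKM in 093 cold, against 10.4 ± 2.22 FPKM in 093 control (SD, n = 3 each).

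Several kinases of this class were called in a single variety. Phvul.008G266600, a second locus described as calmodulin-domain protein kinase 9, had 7.05, 4.84 and 4.82 FPKM in 120 cold, against 4.17, 5.63 and 4.38 FPKM in 120 control, and 0.938, 1.41 and 1.06 FPKM in 093 cold, against 7.82, 7.16 and 8.84 FPKM in 093 control. It fell in 093 with a change of -2.07 (SE 0.17, adjusted p = 6e-07). Its libraries overlapped in 120. Phvul.002G279300, described as calcium-dependent protein kinase 2, had 7.53, 8.25 and 8.65 FPKM in 120 cold, against 16.8, 20.8 and 16.1 FPKM in 120 control, and 17.9, 17.7 and 15.8 FPKM in 093 cold, against 10.1, 9.18 and 10.2 FPKM in 093 control. Cold and control did not overlap in either variety and lay in opposite order. Its fall in 120, of -1.04 (SE 0.12, adjusted p = 1.1e-05), was -0.99 without library 1 of 120 cold and -0.93 without library 2 of 120 control, both under the limit of 1. Phvul.002G161200, described as kinase 6, had 13.2, 14.5 and 11.1 FPKM in 120 cold, against 12.7, 16.2 and 11.4 FPKM in 120 control, and 20.6, 21.2 and 20.1 FPKM in 093 cold, against 4.84, 6.18 and 7.83 FPKM in 093 control. It rose in 093 by 1.59 (SE 0.17, adjusted p = 5.4e-06) and its groups overlapped in 120. The other members called higher in 093 only were Phvul.007G253300 (kinase 19, log2 change 0.87 in 120 and 1.29 in 093) and Phvul.008G098400 (kinase 13, 0.19 in 120 and 1.44 in 093).

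**Figure D3:**
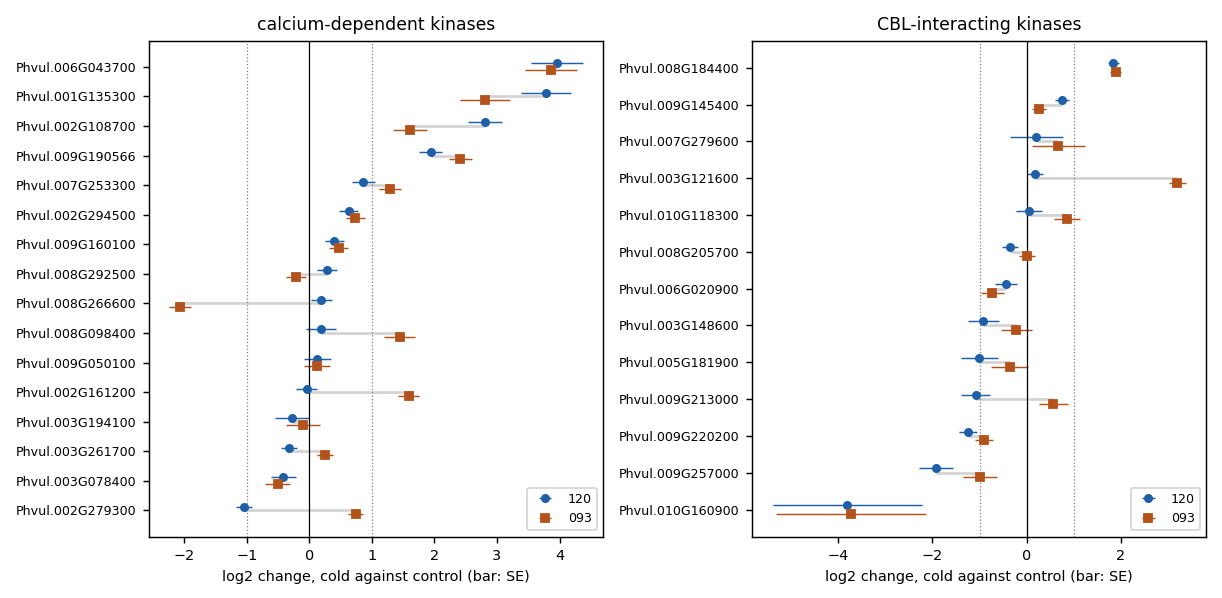
Log2 change in cold against control for the 16 calcium-dependent kinases (left) and the 13 CBL-interacting kinases (right), with circles for 120 and squares for 093. Bars are standard errors, dotted lines mark a change of 1 in either direction and grey lines join the varieties. Phvul.008G266600, Phvul.002G279300 and Phvul.002G161200 on the left and Phvul.003G121600 on the right have the most widely parted pairs, while Phvul.006G043700 and Phvul.008G184400 nearly coincide.

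Among the 19 other EF-hand proteins there were 8 rises and 0 falls in 120, and 7 rises and 2 falls in 093. Rises made up 42.1% in 120, against 27.8% of all tested loci, and 36.8% in 093, against 33%, and falls 0% in 120, against 18.6%, and 10.5% in 093, against 15.2%. With median-ratio scaling these were 6 rises and 4 falls in 093, and with quantile normalization 6 and 3. Phvul.006G101500 had 20.03, 22.9 and 14.6 FPKM in 120 cold, against 1.15, 1.64 and 1.31 FPKM in 120 control, and 14.9, 14.9 and 14.0 FPKM in 093 cold, against 1.16, 1.17 and 5.32 FPKM in 093 control. Phvul.005G123400 had 82.3, 94.8 and 48.8 FPKM in 120 cold, against 14.2, 9.08 and 11.3 FPKM in 120 control, and 65.6, 64.0 and 65.8 FPKM in 093 cold, against 12.1, 8.21 and 13.3 FPKM in 093 control. Phvul.007G250200 had 73.9, 68.9 and 66.5 FPKM in 120 cold, against 9.49, 10.8 and 10.8 FPKM in 120 control, and 61.4, 60.1 and 63.0 FPKM in 093 cold, against 12.9, 9.01 and 17.4 FPKM in 093 control. These 3, described only as calcium-binding EF-hand family proteins, rose in both varieties with no overlap between cold and control. Their log2 changes were 3.08, 2.57 and 2.64 in 120, and 2.33, 2.46 and 2.19 in 093. Phvul.005G068100, described as both a sodium/calcium exchanger and an EF-hand protein, was among the most abundant of the group, at 94.4, 91.4 and 59.5 FPKM in 120 cold, against 11.7, 16.4 and 13.0 FPKM in 120 control, and 75.5, 78.6 and 81.9 FPKM in 093 cold, against 16.0, 17.6 and 54.7 FPKM in 093 control. It rose in both, although library 3 of 093 control was again higher than the other 2. Phvul.003G275000, also abundant, averaged 45.4 ± 3.45 FPKM in 120 cold, against 53.2 ± 6.24 FPKM in 120 control, and 39.1 ± 1.44 FPKM in 093 cold, against 34.7 ± 8.24 FPKM in 093 control (SD, n = 3 each), and was called in neither.

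MSTRG.287, an EF-hand locus that carries the gene names Phvul.001G049500 and Phvul.001G049400, was the one member called in opposite directions. It had 18.0, 20.1 and 9.17 FPKM in 120 cold, against 3.40, 4.82 and 5.08 FPKM in 120 control, and 11.4, 13.0 and 17.7 FPKM in 093 cold, against 130.4, 65.2 and 99.4 FPKM in 093 control. The 093 control libraries stood apart from the other 9, all of which were at 20.1 FPKM or less. The locus rose in 120 by 1.57 (SE 0.30, adjusted p = 0.00063) and fell in 093 with a change of -2.69 (SE 0.30, adjusted p = 8.1e-06). Which of the 2 gene names its reads belong to was not analysed here. Phvul.003G154200, the other EF-hand protein that fell in 093, had 2.36, 2.19 and 2.48 FPKM in 093 cold, against 4.88, 5.89 and 13.6 FPKM in 093 control. That fall, of -1.33 (SE 0.30, adjusted p = 0.0018), was -0.93 and not called without library 3 of 093 control.

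Calmodulin-binding proteins, the targets of calmodulin, rose in 17 of 31 cases in each variety, 13 of them in both, and 0 were called lower in either. Among all tested loci 27.8% rose in 120 and 33% in 093. The members' median log2 change was 1.76 in 120 and 1.04 in 093. Without the 5 of them that reached 1 FPKM in cold libraries only, 13 of 26 rose in each variety (50%, against 25.8% and 31% of all tested loci counted in that way). In 093, 13 were called higher and 1 lower with median-ratio scaling, and 12 and 1 with quantile normalization. Phvul.001G226000, described as a calmodulin-binding protein, had 31.6, 21.5 and 19.2 FPKM in 120 cold, against 0.119, 0.126 and 0.0523 FPKM in 120 control, and 25.6, 24.5 and 21.4 FPKM in 093 cold, against 0.197, 0.121 and 0.208 FPKM in 093 control. It was barely listed without cold and rose by 4.48 (SE 0.17, adjusted p = 2e-09) in 120 and by 4.40 (SE 0.17, adjusted p = 2.5e-09) in 093. It reached 1 FPKM in cold libraries only, so that its direction followed from the filter. The loci with the next gene names and the same description, Phvul.001G226100 and Phvul.001G226200, also rose in both varieties, by 2.78 and 1.11 in 120 and by 2.21 and 1.3 in 093 on the log2 scale. Phvul.001G226200 had at most 1.96 FPKM in any library and was at 0 in 2 of them. It reached 1 FPKM in cold libraries only, so its direction, too, followed from the filter. Phvul.002G318100, described as calmodulin binding protein-like, had 76.7, 59.9 and 49.1 FPKM in 120 cold, against 2.91, 2.97 and 2.40 FPKM in 120 control, and 35.5, 35.6 and 36.2 FPKM in 093 cold, against 0.715, 0.505 and 0.738 FPKM in 093 control. Its rises were 4.04 (SE 0.15, adjusted p = 2e-09) in 120 and 4.48 (SE 0.15, adjusted p = 1.2e-09) in 093. Phvul.002G237000, a calmodulin-binding family protein, averaged 20.8 ± 5.28 FPKM in 120 cold, against 0.478 ± 0.123 FPKM in 120 control, and 10.8 ± 0.702 FPKM in 093 cold, against 0.272 ± 0.112 FPKM in 093 control (SD, n = 3 each). This locus, too, reached 1 FPKM in cold libraries only, so that its direction followed from the filter.

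Phvul.009G231000, another calmodulin-binding family protein, reached a high level in 120 cold alone. It had 171, 147 and 108 FPKM in 120 cold, against 3.12, 9.30 and 3.79 FPKM in 120 control, and 16.4, 16.4 and 18.6 FPKM in 093 cold, against 2.76, 1.97 and 4.26 FPKM in 093 control. It rose in both varieties, by 4.58 (SE 0.32, adjusted p = 1.5e-07) in 120 and by 2.22 (SE 0.32, adjusted p = 5.7e-05) in 093. By mean level it ranked 4 of the 107 in 120 cold and 46 in 093 cold. Calmodulin-binding receptor-like cytoplasmic kinase 1, a protein kinase that binds calmodulin in Arabidopsis, was described at 3 loci. Phvul.006G066500 had 24.4, 21.3 and 6.84 FPKM in 120 cold, against 0.865, 0.970 and 0.656 FPKM in 120 control, and 2.88, 3.00 and 2.87 FPKM in 093 cold, against 1.27, 1.17 and 2.39 FPKM in 093 control. Phvul.006G066611 had 20.8, 18.5 and 5.79 FPKM in 120 cold, against 0.948, 1.17 and 0.687 FPKM in 120 control, and 2.88, 2.59 and 2.72 FPKM in 093 cold, against 1.3, 0.983 and 2.41 FPKM in 093 control. The values of these 2 ran nearly level in every library, and whether they share reads was not tested, so they cannot be taken as independent results. The other locus, Phvul.008G263900, averaged 12.6 ± 4.16 FPKM in 120 cold, against 1.68 ± 0.751 FPKM in 120 control, and 2.65 ± 0.569 FPKM in 093 cold, against 1.07 ± 0.448 FPKM in 093 control (SD, n = 3 each). All 3 rose in 120, by 3.17, 2.89 and 2.33, and were not called in 093, at 0.61, 0.58 and 0.83.

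Calmodulin-binding transcription activators with CG-1 and ankyrin domains (CAMTA) act upstream of cold-response genes in Arabidopsis, and 4 loci carried this description. Phvul.003G119800 rose in both varieties, with 23.6 ± 10.6 FPKM in 120 cold, against 1.29 ± 0.150 FPKM in 120 control, and 14.2 ± 1.27 FPKM in 093 cold, against 1.55 ± 1.28 FPKM in 093 control. Phvul.002G209300 also rose in both, with 38.5 ± 10.7 FPKM in 120 cold, against 10.3 ± 0.802 FPKM in 120 control, and 41.7 ± 2.58 FPKM in 093 cold, against 7.24 ± 1.75 FPKM in 093 control (SD, n = 3 each). The other 2 were called in a single variety. Phvul.001G263000 had 32.4, 28.2 and 21.8 FPKM in 120 cold, against 5.99, 7.97 and 6.84 FPKM in 120 control, and 10.1, 10.7 and 10.7 FPKM in 093 cold, against 7.68, 8.22 and 12.8 FPKM in 093 control, and rose in 120 by 1.83 (SE 0.19, adjusted p = 4.4e-06). Phvul.006G206400 had log2 changes of 0.24 in 120 and 1.04 (SE 0.15, adjusted p = 6.6e-05) in 093, where it rose. The difference of the responses was called for Phvul.001G263000 and not for Phvul.006G206400, at -0.80 (SE 0.21, adjusted p = 0.016). Phvul.003G147800, the most abundant calmodulin-binding protein in 120 control, was not called, with changes of -0.54 in 120 and -0.35 in 093. The loci described as ZWICHEL, a kinesin needed for branching of leaf hairs in Arabidopsis, were Phvul.003G279200 and Phvul.002G120200. The first had a log2 change of -0.30 in 120 and 1.10 in 093, where it rose. The second had -0.62 in 120 and 0.90 in 093 and was called in neither, although in 093 it was called at 1.03 without library 3 of 093 control.

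The 13 calcineurin-like phosphoesterases had 4 rises and 1 fall in 120, and 5 rises and 1 fall in 093. Rises made up 30.8% in 120 and 38.5% in 093, near the 27.8% and 33% of all tested loci. With median-ratio scaling or quantile normalization 3 of the 13 rose in 120 and 1 in 093. Phvul.003G206000 had 1.94, 3.66 and 1.88 FPKM in 120 cold, was at 0 in each 120 control library, and had 2.67, 2.87 and 1.94 FPKM in 093 cold, against 0, 0 and 0.0621 FPKM in 093 control. Phvul.001G019800 had 64.1, 77.3 and 27.0 FPKM in 120 cold, against 16.7, 14.9 and 16.6 FPKM in 120 control, and 38.6, 36.1 and 37.9 FPKM in 093 cold, against 19.9, 15.1 and 16.9 FPKM in 093 control. Both rose in both varieties, but Phvul.003G206000 reached 1 FPKM in cold libraries only, so that its direction followed from the filter. The rise of Phvul.001G019800 in 093, of 1.09, was 0.57 with median-ratio scaling, 0.60 with quantile normalization and 0.9975, just under the limit, without library 2 of 093 control. Phvul.007G222200 rose by 1.14 in 120 and by 1.0 in 093, where it was not called without library 2 of 093 cold (0.97), library 2 of 093 control (0.97) or library 3 of 093 control (0.92). With median-ratio scaling it was 0.93 in 120 and 0.53 in 093, and with quantile normalization 0.87 and 0.58, called in none of these. Phvul.008G256500 was the one member that fell in both, with 19.9, 20.2 and 21.2 FPKM in 120 cold, against 64.6, 93.0 and 70.4 FPKM in 120 control, and 13.2, 13.8 and 13.9 FPKM in 093 cold, against 27.6, 27.1 and 30.3 FPKM in 093 control. Its fall was -1.83 (SE 0.13, adjusted p = 1.8e-07) in 120 and -1.0 (SE 0.13, adjusted p = 2.4e-05) in 093, where it was -0.98 without library 1 of 093 cold and -0.96 without library 3 of 093 control. Phvul.010G121800 rose in 120 by 1.36 (SE 0.16, adjusted p = 9.5e-06), with 9.42, 7.66 and 5.94 FPKM in 120 cold, against 2.41, 2.35 and 2.21 FPKM in 120 control, and had 3.46, 4.34 and 4.41 FPKM in 093 cold, against 5.91, 6.29 and 5.72 FPKM in 093 control. The most abundant, Phvul.006G088900, had 228 ± 64.1 FPKM in 120 cold, against 160.0 ± 8.73 FPKM in 120 control, and 173 ± 4.45 FPKM in 093 cold, against 129.6 ± 22.3 FPKM in 093 control (SD, n = 3 each), and was called in neither. It ranked 1 of the 107 by mean level in both control groups and 2 in both cold groups. Phvul.008G213700, the second by mean level over the 12 libraries, was at 60.9 ± 3.89 FPKM in 120 cold, against 55.8 ± 2.84 FPKM in 120 control, and 68.3 ± 2.67 FPKM in 093 cold, against 56.1 ± 10.2 FPKM in 093 control, also called in neither.

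Rises were shared between the varieties about as often among members as among all tested loci. There were 34 loci called higher in both, which are 82.9% of those that rose in 120 and 73.9% of those that rose in 093. Over all tested loci these shares were 80.6% and 67.9%. Some of the 34 reached 1 FPKM in cold libraries only, so that their direction followed from the filter. The 2 cold comparisons share no library, but the fit took 1 estimate of spread per locus from all 12 libraries, so their calls are not independent. A further 6 members rose in 120 and were not called in 093, and 12 rose in 093 and were not called in 120. Of the falls, 1 was shared, 6 were called in 120 only and 3 in 093 only, and 44 members were called in neither variety. The shared fall was 14.3% of the falls in 120 and 20% of those in 093, while over all tested loci 59.6% of the falls in 120 and 72.7% of those in 093 were shared. With 7 and 5 falls the members' shares rest on few loci, and they moved with scaling. With median-ratio scaling Phvul.009G220200 (-1.40) and Phvul.009G257000 (-1.43), which fell in 120, were also called lower in 093. They were at -1.39 and -1.43 there with quantile normalization, again called.

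**Figure D4:**
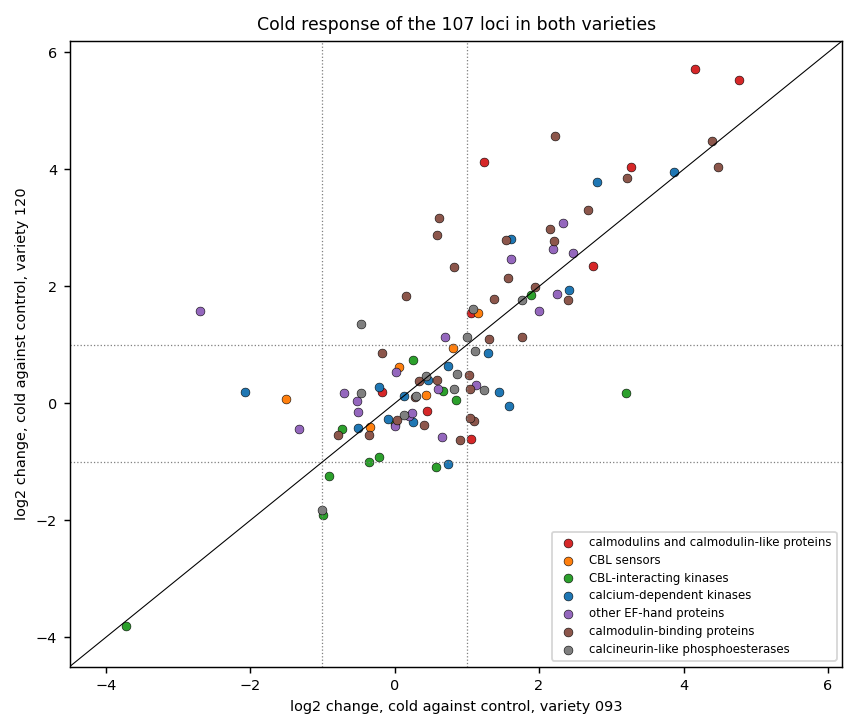
Log2 change in cold against control in 120 (vertical axis) and in 093 (horizontal axis) for the 107 loci, coloured by role. The solid line marks equal changes and dotted lines mark a change of 1 in either direction. Most points lie near the line, and MSTRG.287 (upper left, 1.57 in 120 and -2.69 in 093) and Phvul.003G121600 (right, 0.18 in 120 and 3.20 in 093) lie farthest from it.

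Whether the cold response itself differed was tested as the change in 120 minus the change in 093. It was called for 24 members, 13 higher in 120 (12.1%, against 6.5% of all tested loci) and 11 lower (10.3%, against 13.1%), or 22.4% in either direction, against 19.6%. Without library 3 of 093 control these counts were 11 and 12, and without library 3 of 120 cold they were 13 and 9. Both other scalings gave 15 and 9 and shifted the median of all tested loci by 0.23 and 0.19. Over all tested loci the counts were 1353 higher and 1232 lower with median-ratio scaling and 1276 and 1276 with quantile normalization, against 956 and 1930 without them. The difference was called for 5 of the 6 members that rose in 120 only and for 7 of the 12 that rose in 093 only. It was called for 2 of the 6 that fell in 120 only and for 2 of the 3 that fell in 093 only. Among the 5 CBL-interacting kinases that fell in 120, it was called for CIPK23 (Phvul.009G213000) alone. A call in a single variety is therefore not by itself a difference between the varieties. MSTRG.287 had the largest difference, 4.26 (SE 0.43, adjusted p = 6e-05), which came from the opposite changes given above and from its level in 093 control. Phvul.001G155400 (calmodulin-like 11) followed at 2.90 (SE 0.53, adjusted p = 0.0021), although the size of that value depends on the pseudocount because 5 control libraries were at 0. The receptor-like cytoplasmic kinases gave 2.56 and 2.31 for the near-identical pair and 1.5 for Phvul.008G263900. Phvul.009G231000 gave 2.36 (SE 0.45, adjusted p = 0.0026) and Phvul.008G266600 2.26 (SE 0.24, adjusted p = 9.3e-05). CBL10 (Phvul.010G139700) gave 1.59 (SE 0.23, adjusted p = 0.00049), and like Phvul.008G266600 it fell in 093 and was not called in 120. The phosphoesterase Phvul.010G121800 gave 1.83, the CAMTA locus Phvul.001G263000 1.68 and Phvul.003G170200 (receptor-like cytoplasmic kinase 3) 1.03, which was 0.93 and not called without library 3 of 093 control.

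Differences in the other direction were led by CIPK1 (Phvul.003G121600), at -3.03 (SE 0.25, adjusted p = 1.6e-05). The calcium-dependent kinases here were Phvul.002G279300 at -1.78 (SE 0.17, adjusted p = 4.5e-05), Phvul.002G161200 at -1.63 (SE 0.24, adjusted p = 0.00063) and Phvul.008G098400 at -1.26 (SE 0.34, adjusted p = 0.017). Calmodulin 8 (Phvul.006G101200) gave -1.66 (SE 0.28, adjusted p = 0.0012) and CIPK23 (Phvul.009G213000) -1.65 (SE 0.44, adjusted p = 0.016), both with a higher level in 120 control than in 093 control. The other differences in this direction were -1.53 and -1.41 for the ZWICHEL loci Phvul.002G120200 and Phvul.003G279200, -1.29 for Phvul.006G191900 (calmodulin-binding), -1.23 for Phvul.008G139100 (EF hand) and -1.0 for the phosphoesterase Phvul.008G212600. Without library 3 of 120 cold, Phvul.006G191900 at -1.23 and Phvul.008G212600 at -0.84 were not called, and without library 3 of 093 control CIPK9 (Phvul.010G118300) was called at -1.22, against -0.80 with all libraries. Among the positive differences, that of the second calmodulin-like 11 locus, Phvul.007G278900, was 1.56 (SE 0.42, adjusted p = 0.016) and was 0.69 and not called with a pseudocount of 0.1. That of kinase 16 (Phvul.002G108700), 1.20 (SE 0.39, adjusted p = 0.035), did not stay called when any one of the 120 control or 093 cold libraries, 120 cold library 1 or 2, or 093 control library 3 was left out, and it was 0.84 without the last of these.

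**Figure D5:**
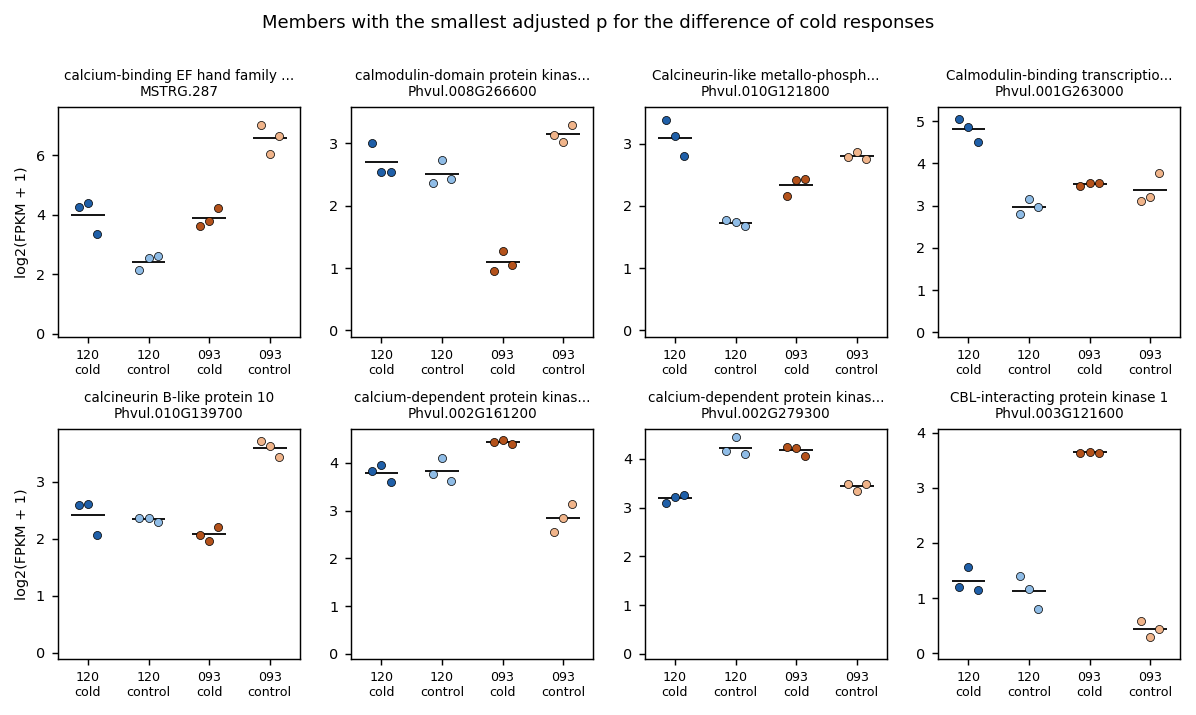
Levels of the 8 members with the smallest adjusted p for the difference of the cold responses, as log2(FPKM + 1) on a scale set for each panel. Dots are libraries and bars are group means. In the first panel the 093 control libraries of MSTRG.287 lie above all others, and in the last panel the 093 cold libraries of Phvul.003G121600 lie above all others.

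Without cold, calls between the varieties were about as frequent among members as among all tested loci, at 9.35% against 10.8%. Of the 107, 6 were called higher in 120 control than in 093 control (5.61%, against 6.34% of all tested loci) and 4 lower (3.74%, against 4.44%). The libraries of the varieties did not overlap for 40 members (37.4%, against 39.7%). The calls numbered 8 and 3 without library 3 of 093 control. In that setting calmodulin 5 (Phvul.004G076400) was called higher in 120 at 1.87, against 0.27 with all libraries. The lower ones were MSTRG.287 at -4.15 (SE 0.30, adjusted p = 2.5e-06), CBL10 (Phvul.010G139700) at -1.25 (SE 0.16, adjusted p = 0.00017), Phvul.001G226100 at -1.11 and Phvul.010G121800 at -1.07. Phvul.001G226100 was not called without library 3 of 093 control, at -0.70. The higher ones included CIPK23 (Phvul.009G213000) at 2.09 (SE 0.31, adjusted p = 0.00051), calmodulin 8 (Phvul.006G101200) at 1.9 (SE 0.20, adjusted p = 3.4e-05), Phvul.008G256500 at 1.38 and Phvul.002G318100 at 1.19. The other 2 were CIPK21 (Phvul.003G148600, 1.28), which had 4.26, 1.06 and 2.44 FPKM in 120 control, against 0.451, 0.168 and 0.542 FPKM in 093 control, and CIPK9 (Phvul.009G257000, 1.18). The call for CIPK21 was lost without library 1 of 120 control (0.95) or library 2 of 093 control (1.16), and that for CIPK9 without any one of the 120 control libraries (1.07 to 1.24), library 2 of 093 control (0.86) or library 3 of 093 control (1.08).

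Under cold, 8 members were called higher in 120 cold than in 093 cold (7.48%, against 5.62% of all tested loci) and 3 lower (2.80%, against 7.03%). The libraries did not overlap for 53 members (49.5%, against 53.4%). Without library 3 of 120 cold, the counts were 12 and 6, and with a pseudocount of 0.1, 6 were lower. Calmodulin 5 (Phvul.004G076400), at 1.04 and not called with all libraries, was called higher in 120 cold without library 3 of 093 control. The higher ones were led by the calmodulin-like 11 locus Phvul.001G155400 at 3.04 (SE 0.37, adjusted p = 0.00011) and by Phvul.009G231000 at 2.96 (SE 0.32, adjusted p = 4.3e-05). They also included Phvul.006G066500 at 2.07, Phvul.006G066611 at 1.93, Phvul.007G278900 at 1.89, Phvul.008G263900 at 1.86, Phvul.008G266600 at 1.61 and the CAMTA locus Phvul.001G263000 at 1.29. CIPK1 (Phvul.003G121600) was the lowest of the 3 lower ones at -2.34 (SE 0.18, adjusted p = 3e-06), and the other 2 were the ZWICHEL loci Phvul.003G279200 at -1.66 and Phvul.002G120200 at -1.07.

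The deposited annotation was not used to choose the members. Its terms follow the same protein classes as the descriptions that did, so a high share among members is no separate result. The KEGG pathway plant-pathogen interaction was given for 37 of the 107 (34.6%), against 570 of all 14716 tested loci (3.87%). It covered all 16 calcium-dependent kinases and 8 of the 9 calmodulins, and 0 of the 13 CBL-interacting kinases. Of those 37, 17 rose and 1 fell in each variety in the main fit. Among all tested loci 27.8% rose and 18.6% fell in 120, and 33% and 15.2% in 093. Some of the calmodulins counted here reached 1 FPKM in cold libraries only, so that their direction followed from the filter. A GO term for calcium ion binding was given for 17 of the 19 other EF-hand proteins, and a term for calmodulin binding for 18 of the 31 calmodulin-binding proteins and for all 16 calcium-dependent kinases.

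Other genes of calcium handling were counted from lists of description words in the same fit, and their counts stand beside 27.8% of all tested loci that rose and 18.6% that fell in 120, and 33% and 15.2% in 093. With 4 to 12 loci in a list, nothing is read from these shares. Of 8 annexins, calcium-dependent membrane-binding proteins, 6 rose in 120 and 3 in 093, and 0 fell in either. Annexin 5 (Phvul.004G146900) averaged 71.2 ± 18.3 FPKM in 120 cold, against 13.2 ± 3.42 FPKM in 120 control, and 64.0 ± 3.45 FPKM in 093 cold, against 31.8 ± 12.0 FPKM in 093 control (SD, n = 3 each). Respiratory burst oxidases, EF-hand enzymes that make superoxide, rose in 4 of 6 cases and fell in 1 in each variety. Oxidase homolog B (Phvul.006G090200) had 187, 174 and 82.7 FPKM in 120 cold, against 0.525, 0.830 and 0.621 FPKM in 120 control, and 44.8, 41.2 and 48.4 FPKM in 093 cold, against 0.291, 0.315 and 0.976 FPKM in 093 control. All its control libraries were under 1 FPKM, so that its direction followed from the filter. Calcium pumps, which clear calcium from the cytosol, had 4 rises and 4 falls among 12 loci in 120, and 5 rises and 4 falls in 093. Calcium ATPase 2 (Phvul.002G011400) averaged 142 ± 30.3 FPKM in 120 cold, against 14.6 ± 2.16 FPKM in 120 control, and 108 ± 6.04 FPKM in 093 cold, against 24.5 ± 29.2 FPKM in 093 control (SD, n = 3 each), where library 3 of 093 control stood at 58.1 FPKM. Cation exchangers rose in 1 and fell in 2 of 6 cases in 120, and rose in 0 and fell in 3 in 093. Cation exchanger 3 (Phvul.010G001500), whose Arabidopsis namesake sits in the vacuolar membrane, had 6.01, 5.33 and 7.11 FPKM in 120 cold, against 70.6, 76.6 and 64.8 FPKM in 120 control, and 7.40, 8.48 and 8.18 FPKM in 093 cold, against 47.5, 29.3 and 51.1 FPKM in 093 control. Cyclic nucleotide-gated channels (11 loci) had 1 rise and 2 falls in 120, and 2 rises and 1 fall in 093. Glutamate receptor channels (11 loci) had 3 rises and 2 falls in 120, and 3 rises and 1 fall in 093. Of 4 calreticulins and calnexins, calcium-binding chaperones, 2 rose and 1 fell in each variety, and no description named a two-pore channel. The genes named in this paragraph were chosen after their values were seen, and so were 20 members named above: MSTRG.6293, Phvul.001G226100, Phvul.001G226200, Phvul.002G120200, Phvul.002G209300, Phvul.003G119800, Phvul.003G170200, Phvul.003G279200, Phvul.005G181900, Phvul.006G191900, Phvul.006G206400, Phvul.007G187200, Phvul.007G253300, Phvul.008G098400, Phvul.008G139100, Phvul.008G206000, Phvul.008G212600, Phvul.008G263900, Phvul.009G190566 and Phvul.010G072500.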

How the data were processed

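Per the labels, RNA of true leaves was captured with oligo(dT) and sequenced paired-end from strand-marked (dUTP) libraries. The authors deposited FPKM per locus for 12 libraries, and per the submitters' processing notes cutadapt 1.9, HISAT2 2.0.4 and StringTie 1.3.4d were used. The genome build is not given in the sources used here, and FPKM do not state depth. FPKM were fitted with limma 3.58.1 (R 4.3.3) as log2(FPKM + 1), with trend, 4 group means over all 12 libraries, a filter of at least 1 FPKM in at least 3 libraries and Benjamini-Hochberg adjustment over 14716 loci. A pseudocount of 1 understates changes of loci at low levels. The fit was also run on simulated data, and no result given here rests on that run. Alternatives were a pseudocount of 0.1, no filter, median-ratio scaling, quantile normalization, a replicate block, fits on 2 groups and leaving out each library. In each role, the text names 3 called members per direction by mean size of change and the 2 most abundant, with the 8 smallest adjusted p of the difference and the 5 largest changes between varieties. The members and all lists were chosen with earlier results of these data known.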

Additional observations from a re-analysis of the deposited data

Results flagged for a closer look

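The cold responses of 16 named members differed between the varieties in the limma test of the difference itself, the log2 change in 120 minus that in 093. Among all 107 members this difference was called for 22.4%, against 19.6% of all tested loci. Some of the 16 were named for a small adjusted p of this same difference, so their number is no separate result. Positive differences were 4.26 for MSTRG.287 (EF hand), 2.90 for Phvul.001G155400 and 1.56 for Phvul.007G278900 (both calmodulin-like 11), 2.36 for Phvul.009G231000 (calmodulin-binding), 2.26 for Phvul.008G266600 (calmodulin-domain kinase 9) and 1.20 for Phvul.002G108700 (kinase 16). The receptor-like cytoplasmic kinases Phvul.006G066500 and Phvul.006G066611 gave 2.56 and 2.31, the phosphoesterase Phvul.010G121800 gave 1.83, the CAMTA locus Phvul.001G263000 gave 1.68 and CBL10 (Phvul.010G139700) gave 1.59. Negative differences were -3.03 for CIPK1 (Phvul.003G121600), -1.78 for kinase 2 (Phvul.002G279300), -1.66 for calmodulin 8 (Phvul.006G101200), -1.65 for CIPK23 (Phvul.009G213000) and -1.63 for kinase 6 (Phvul.002G161200). MSTRG.287 was called in opposite directions, and the other 15 were called in a single variety or called higher in both. The call of the difference was lost for Phvul.007G278900 with a pseudocount of 0.1 and for Phvul.002G108700 in several alternatives.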

How the results depend on the processing

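With each library left out in turn, 39 to 42 members rose and 4 to 7 fell in 120, 39 to 47 rose and 4 to 6 fell in 093, and the difference was called higher in 120 for 11 to 13 and lower for 9 to 12. Between the varieties, 4 to 8 were higher and 3 to 4 lower in 120 without cold, and 8 to 12 higher and 2 to 6 lower under cold. Falls in 093 numbered 11 with median-ratio scaling and 10 with quantile normalization, against 5, and loci lower in 120 under cold numbered 6 with a pseudocount of 0.1, against 3. The cause was not tested. Some cold changes of members named by rule, none of them called with all libraries, changed sign. With median-ratio scaling and quantile normalization in turn, these were -0.11 and -0.17 for Phvul.010G139700, -0.19 and -0.19 for Phvul.010G118300, -0.0094 and -0.062 for Phvul.008G266600 and -0.11 and -0.20 for Phvul.008G213700 in 120. In 093 they were -0.52 and -0.48 for Phvul.008G205700, -0.32 and -0.32 for Phvul.003G275000, -0.23 and -0.24 for Phvul.008G213700 and -0.33 and -0.31 for Phvul.001G263000. Phvul.006G088900 was at -0.10 in 093 with median-ratio scaling and Phvul.003G121600 at -0.020 in 120 with quantile normalization. With each library left out in turn, Phvul.010G139700 ran from -0.0070 to 0.26 and Phvul.002G161200 from -0.15 to 0.092 in 120, and Phvul.008G205700 from -0.064 to 0.058 and Phvul.003G275000 from -0.014 to 0.30 in 093. For the changes tested for the 45 members named by rule, counted per locus and comparison, 6 calls were lost and 3 gained with median-ratio scaling, 7 lost and 3 gained with quantile normalization, and 3 lost with no filter. A replicate block gave 41 rises and 6 falls in 120, 46 and 5 in 093, and 12 and 11 for the difference. Correlations between groups of the deviations of same-numbered libraries from their group means ran from -0.08 to 0.05. Between 120 cold and 093 cold the same number was the best match for each of the 3, but at correlations of only 0.018 to 0.03. The numbers were therefore not taken to pair libraries. Loci near 1 FPKM rest on few reads, and the depth behind them is unknown.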
